A study of Mus musculus with 65 samples.

Results

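Gene expression was compared in primary neural stem cells of young mice after 18 h and after 6 h in differentiation medium. The members were all libraries of 2 label groups, 5 at 18 h (D18h_untr_young) and 5 at 6 h (D06h_untr_young), which are 10 of the 65 libraries and 2 of the 15 groups of the series. The cells came from the subventricular zone of adult mice aged 3 to 4 months with the genotype iOSKM, a doxycycline-inducible reprogramming cassette, and neither group received doxycycline. They were grown on poly-D-lysine and laminin in Neurobasal-A with B27, EGF and bFGF. Differentiation began 18 h after plating, when EGF and bFGF were left out of the medium. Each group held the same 5 animals, of which animals 1 and 4 are labelled male and animals 2, 3 and 5 female. Each library is a culture of mixed cells from 1 animal. With 1 time of medium change for all cultures, time in the new medium and time since plating cannot be told apart. Untreated young cells kept in stem cell medium were sampled at 1 time only, labelled 18 h (A18h_untr_young).

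Neural stem cells of the subventricular zone divide in response to EGF and bFGF, which act through receptor tyrosine kinases and ERK to hold cyclin D and Myc levels up. When these factors are withdrawn the cells leave the cell cycle and take on astrocyte, oligodendrocyte or neuronal fates over several days. Passage through S phase and mitosis is driven by E2F factors and by the MuvB and FOXM1 complexes, and the commitment to glia by Notch, BMP and STAT3 signals and by the Olig, Sox and Nfi transcription factors.

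Between the 2 times most of the transcriptome differed, and among the gene lists the mitosis and replication lists had the medians farthest from 0. Of 17084 genes tested with edgeR's quasi-likelihood test and the animal as a block, 11611 (68.0%) passed an adjusted p of 0.05. Of these, 5922 (34.7%) were higher and 5689 (33.3%) lower at 18 h. The median log2 fold change was 0.01 over all genes tested, and the median absolute one was 0.49 over the genes that passed. A test against a log2 fold change of 1 was passed by 656 genes (3.84%) that were higher and 935 (5.47%) that were lower. Past a log2 fold change of 4 stood 12 higher and 115 lower genes, and 35 of the lower ones belong to the replication and mitosis lists described here. The 5 libraries at 18 h did not overlap the 5 at 6 h in 53.7% of the genes tested, so a list in which about 68.0% of the members were called, or a gene whose groups were apart, was the common case.

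Total counts of the 10 libraries ran from 65.9 to 102 M counts (M, mega), against 56.5 to 117 M counts over the series. The first principal component of 500 genes held 93.61% of their variance and separated the times. The second held 4.95% and separated animals 1 and 4, labelled male, from animals 2, 3 and 5, labelled female. The part of sex in this split was not tested. The 100 features with the highest counts took 19.7 ± 0.848% of counts at 18 h and 16.9 ± 0.668% at 6 h (SD, n = 5 each, exact permutation p = 0.00794, two-sided, adjusted 0.0397, the smallest p that this design allows being 0.00794). A mean of 19885 ± 139 features had a count at 18 h and 20257 ± 214 at 6 h (exact permutation p = 0.0159, adjusted 0.0398). With the libraries paired by animal, an exact sign-flip test gave p = 0.0625 for both, the smallest p that 5 pairs allow, so neither passed a threshold of 0.05. Mitochondrial genes held 1.75 ± 0.258% of counts at 18 h and 1.54 ± 0.19% at 6 h (exact permutation p = 0.183). The part of these library properties in the gene results was not tested.

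The labelled cell type was checked with 13 neural stem cell markers, all of which were measured. Sox2, a transcription factor of neural stem cells, had 332, 314, 346, 355 and 350.3 CPM (counts scaled to library size) in animals 1 to 5 at 18 h, and 362, 365, 323, 383 and 371 CPM at 6 h. These ranges overlapped, and Sox2 did not pass the test (log2 fold change -0.09 ± 0.05 SE, adjusted p = 0.102). Of the 13, 5 were higher at 18 h, 3 lower and 5 did not pass. Gfap, Fabp7, Slc1a3, Nr2e1 and Sox9 were higher (log2 fold changes 2.53, 1.5, 0.96, 0.76 and 0.34), and Nes, Vim and Olig2 lower (-1.60, -0.69 and -0.41). Of 13 microglial markers 4 were measured well enough to test, with summed levels of 56.9 to 68.1 CPM at 18 h and 38.7 to 45.7 CPM at 6 h. The mean of 11 of the 13 was under 1 CPM, and Tyrobp was at 0 in every library. The summed endothelial markers lay at 13.9 to 15.8 CPM at 18 h and 13.1 to 16.3 CPM at 6 h, with Cldn5 near 0, and 8 of 11 were tested, 2 higher and 4 lower. Pericyte and fibroblast markers summed to 136 to 166 CPM at 18 h and 197 to 253 CPM at 6 h, mostly through Cspg4, which precursors of oligodendrocytes also express. Of these 13 markers, 6 were tested and all 6 were lower, while Kcnj8 was near 0. The ependymal sums were 50.6 to 60.7 CPM at 18 h and 67.8 to 75.6 CPM at 6 h, with 6 of 10 tested markers lower and Tmem212 at 0. Markers of mature neurons summed to 103 to 119 CPM at 18 h and 141 to 213 CPM at 6 h (4 of 10 tested markers higher, 5 lower, Slc17a6 at 0). Choroid plexus markers summed to 236 to 328 CPM at 18 h and 85.5 to 131 CPM at 6 h, almost all of it Enpp2, while Ttr was near 0.

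Genes of the mitosis list, which was written with earlier results of these data known, fell without exception. All 38 members of the mitosis list passed the test as lower at 18 h, all 38 also past a log2 fold change of 1, with a median of -5.16 beside 0.01 for all genes tested. Their summed level was 127 to 201 CPM at 18 h and 3854 to 4936 CPM at 6 h. Plk1 (chr7:122159439-122169873, plus strand, mm10), the kinase that drives centrosome maturation and spindle assembly, had 1.28, 1.47, 2.02, 1.13 and 2.52 CPM at 18 h and 116, 123, 125, 118 and 93.8 CPM at 6 h. Its log2 fold change was -6.14 ± 0.24 SE (adjusted p = 6.9e-06), and the groups were far from overlapping. Aurkb, the kinase of the chromosomal passenger complex, had a log2 fold change of -6.08, and Ccnb1, the cyclin that activates Cdk1 at the entry to mitosis, one of -6.02. Mki67, whose protein coats mitotic chromosomes, averaged 13.9 ± 6.3 CPM at 18 h and 512 ± 87.7 CPM at 6 h. The smallest decrease of the list was that of Kif20a, a kinesin of cytokinesis, which fell by 3.31 on the log2 scale. Among protein-coding genes that averaged 5 CPM or more and did not overlap between the times, the 12 largest decreases were those of Nek2, Plk1, Aurkb, Ccnb1, Kif14, Depdc1a, Hmmr, Ankle1, Esco2, Kif2c, Cdca2 and Troap, with log2 fold changes between -6.16 and -5.89. In a bulk library, fewer dividing cells and less RNA per cell cannot be told apart.

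DNA replication genes fell as a group too, by less. All 38 were lower at 18 h, 32 of them past a log2 fold change of 1, with a median of -2.47 and sums of 439 to 476 CPM at 18 h and 1749 to 2208 CPM at 6 h. Mcm5 (chr8:75109569-75128439, plus strand), a subunit of the replicative helicase, had 4.51, 5.33, 4.99, 4.64 and 6.61 CPM at 18 h and 79.4, 83.8, 91.2, 72.2 and 76.9 CPM at 6 h, with no overlap (log2 fold change -3.96 ± 0.09 SE, adjusted p = 1.53e-10). The members did not fall evenly. Mcm10, which loads polymerase at the opened origin, fell by 4.94, and Rrm2 and Tk1, enzymes of nucleotide supply, by 4.39 and 4.92. In the same helicase ring as Mcm5, Mcm7 fell by 0.99, and the GINS subunit Gins4 by 0.64, the smallest change of the list. The licensing factor Cdt1 fell by 3.34, the transcription factors E2f1 and E2f2 by 2.74 and 3.71, and the S-phase cyclins Ccne1 and Ccne2 by 1.77 and 1.18.

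Plk1 averaged 70.4 ± 12.6 CPM in the untreated young libraries kept in stem cell medium (NSC), 115 ± 12.5 CPM at 6 h, 1.69 ± 0.575 CPM at 18 h and 1.3 ± 0.343 CPM at 48 h (SD, n = 5 each). Mcm5 averaged 145 ± 13.8, 80.7 ± 7.21, 5.22 ± 0.842 and 5.79 ± 0.832 CPM in NSC, 6 h, 18 h and 48 h libraries. The mean of Plk1 was higher at 6 h than in stem cell medium and that of Mcm5 lower, and at 18 h and 48 h the means of both were far under those at 6 h. These time points share libraries with the comparison of 18 h with 6 h and are given side by side only.

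**Figure D1:**
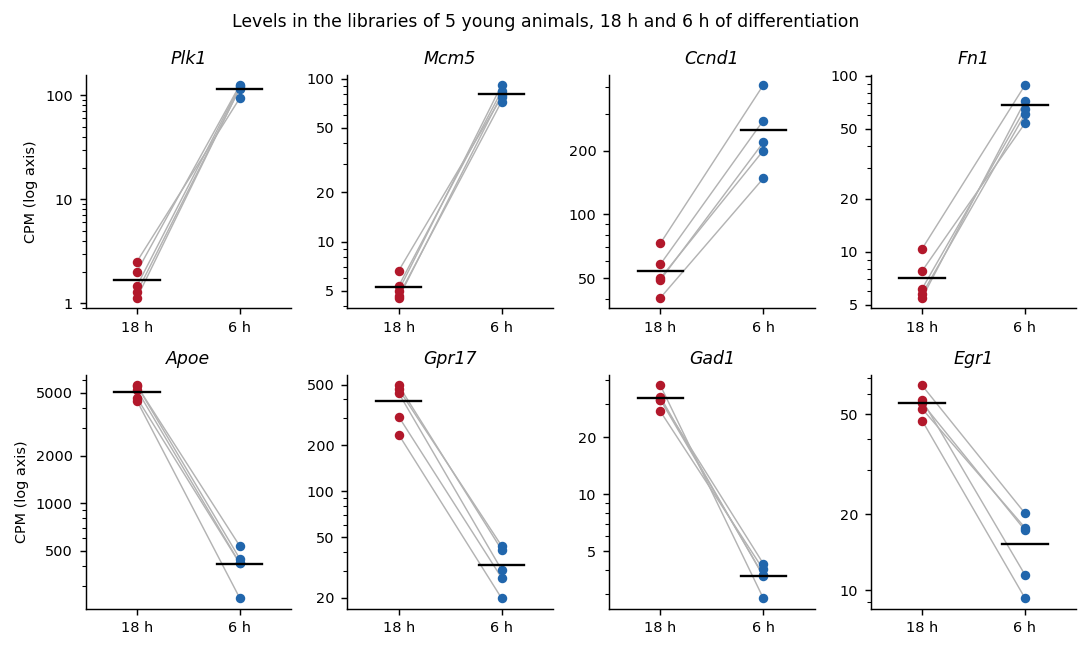
Levels of 8 genes in CPM (log axis) in the 5 libraries at 18 h (left, red) and the 5 at 6 h (right, blue). Each point is 1 animal, grey lines join the libraries of an animal and the bar is the mean. Plk1, Mcm5, Ccnd1 and Fn1 were lower at 18 h and Apoe, Gpr17, Gad1 and Egr1 higher in all 5 animals, and no gene of the 8 overlapped between the times.

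The promoters of these genes are shown because late cell cycle genes are known to carry a CHR element and CCAAT boxes, and S-phase genes E2F sites. The first 3 are of mitotic genes, the last 2 of replication genes. They were chosen by hand and are not typical of their lists. The CHR letters stood in 10 of 33 promoters of the mitosis list and the E2F letters in 10 of 36 of the replication list. Each run is 200 bases that end at the base before the RefSeq transcript start, 5′ to 3′ on the gene's strand, in build GRCm38.p6. Capitals mark matches on either strand to TTTGAA (CHR), CCAAT and TTCCCGC (E2F), so that TTCAAA and ATTGG are the same motifs on the other strand.
Cdk1: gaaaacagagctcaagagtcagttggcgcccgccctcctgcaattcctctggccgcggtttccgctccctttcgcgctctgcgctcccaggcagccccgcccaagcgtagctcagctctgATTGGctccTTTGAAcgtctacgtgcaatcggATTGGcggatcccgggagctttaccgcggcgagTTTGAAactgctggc
Ube2c: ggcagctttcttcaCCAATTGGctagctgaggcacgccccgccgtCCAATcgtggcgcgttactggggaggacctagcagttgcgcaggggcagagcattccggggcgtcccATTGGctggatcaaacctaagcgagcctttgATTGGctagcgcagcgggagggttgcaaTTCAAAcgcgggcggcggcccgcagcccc
Top2a: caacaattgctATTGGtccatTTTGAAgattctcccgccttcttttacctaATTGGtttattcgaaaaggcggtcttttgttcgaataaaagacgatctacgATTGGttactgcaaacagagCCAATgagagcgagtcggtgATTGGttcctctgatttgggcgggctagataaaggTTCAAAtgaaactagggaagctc
Rrm1: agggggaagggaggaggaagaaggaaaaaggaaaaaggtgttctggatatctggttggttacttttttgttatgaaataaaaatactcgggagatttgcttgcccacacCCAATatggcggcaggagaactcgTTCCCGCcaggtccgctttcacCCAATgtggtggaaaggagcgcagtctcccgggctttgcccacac
Prim1: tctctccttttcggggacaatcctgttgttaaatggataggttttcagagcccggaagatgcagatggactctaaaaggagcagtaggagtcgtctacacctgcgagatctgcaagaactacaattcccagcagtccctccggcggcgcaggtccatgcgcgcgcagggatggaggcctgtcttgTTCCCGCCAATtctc

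Cdk1, the kinase of mitotic entry, has its window at chr10:69352913-69353112 on the minus strand, and it holds CHR matches that begin 15 and 71 bases before the start and CCAAT matches at 48 and 80. Its mRNA averaged 3.12 CPM at 18 h and 120 CPM at 6 h (log2 fold change -5.28 ± 0.16 SE). Ube2c, the ubiquitin-conjugating enzyme of the anaphase-promoting complex, at chr2:164769729-164769928 on the plus strand, has a CHR match at 29 and 5 CCAAT matches, a pair of which overlap as CCAATTGG. It averaged 3.88 CPM at 18 h and 113 CPM at 6 h. Top2a, the topoisomerase that unlinks sister chromosomes, at chr11:99024190-99024389 on the minus strand, has CHR matches at 23 and 179 and 5 CCAAT matches, and averaged 10.2 CPM at 18 h and 521 CPM at 6 h. Rrm1, the large subunit of ribonucleotide reductase, at chr7:102441495-102441694 on the plus strand, has an E2F match at 67 and CCAAT at 45 and 91, and averaged 52.1 CPM at 18 h and 294 CPM at 6 h. Prim1, the primase, at chr10:128015015-128015214 on the plus strand, has an E2F match at 15 that shares a base with a CCAAT match at 9, and averaged 6.01 CPM at 18 h and 21.2 CPM at 6 h.

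Over the lists, 31 of 38 mitosis genes had a promoter in the RefSeq table. CCAAT was found within 250 bases before the start in 25 of their 33 promoters (75.8%, against 33.8% of all 32851 promoters of the table) and the CHR letters in 10 (30.3%, against 16%). Of 36 promoters of 30 replication genes, 10 held the E2F letters (27.8%, against 3.8%), 20 held CCAAT (55.6%) and 5 the CHR letters (13.9%). Across the 12203 tested genes with a promoter, the CHR and CCAAT shares were highest in the class that fell most, and the E2F share was not. Among the 87 genes lower by a log2 fold change of 4 or more, 34.5% held the CHR letters and 70.1% CCAAT, beside 12.9% and 39.9% of all these genes. The E2F letters stood in 4.6% of the same 87 genes, in 11.5% of the 278 genes lower by 2 to 4, in 3.1% of the 161 genes higher by 2 or more and in 7.6% of all. These are matches of letters, and no binding was measured.

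**Figure D2:**
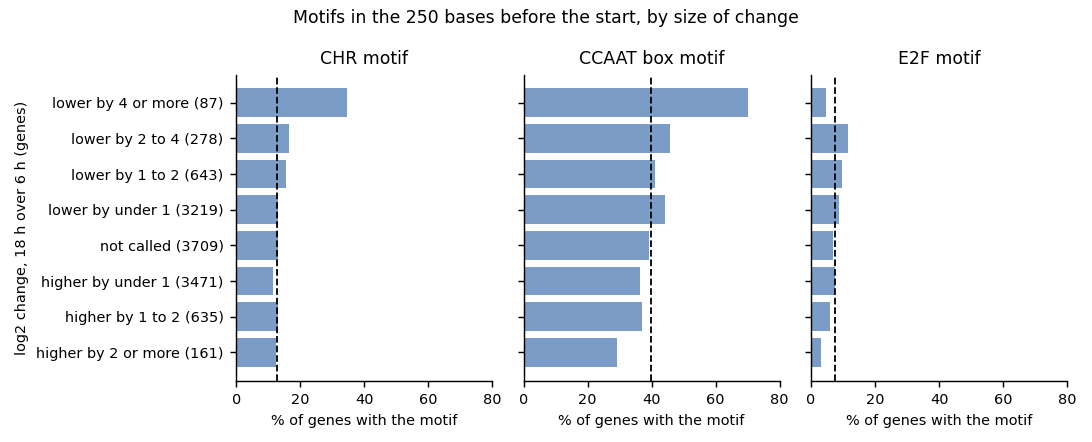
Share of genes (%) with each motif in the 250 bases before the start, for classes of log2 fold change at 18 h over 6 h, with the number of genes in brackets. The dashed line is the share over all 12203 tested genes with a promoter. CHR reached 34.5% and CCAAT 70.1% in the class that fell most, and E2F was highest, at 11.5%, in the class lower by 2 to 4.

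Upstream of S phase the G1 regulators changed less evenly. Of 13 tested G1 cyclins and kinases, 2 were higher and 8 lower (median -0.13). Ccnd1, cyclin D1, had 49.0, 49.9, 73.0, 40.3 and 58.1 CPM at 18 h and 219, 200.3, 409, 148 and 278 CPM at 6 h. Each animal was lower at 18 h and the groups did not overlap (log2 fold change -2.16 ± 0.08 SE, adjusted p = 5.56e-09). The mean of Ccnd1 in stem cell medium was 3421 CPM, so most of its difference from the NSC level was already present at 6 h. Ccnd2 fell by 0.98 on the log2 scale and Rbl1, the E2F-bound pocket protein p107, by 2.18. Rb1 itself, the retinoblastoma protein, rose by 0.48 and Ccnd3 by 0.23.

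No gene in the list of inhibitors of cyclin-dependent kinases and p53 targets was higher at 18 h. Of the 25 genes, 23 were lower (7 of them past a log2 fold change of 1, median -0.59). Cdkn1a, the p53-induced inhibitor p21, had 158, 134, 149.9, 144 and 135 CPM at 18 h and 383, 345, 400.5, 353 and 386 CPM at 6 h, with no overlap (log2 fold change -1.38 ± 0.04 SE, adjusted p = 1.21e-10). Cdkn2c and Cdkn2d, inhibitors of Cdk4 and Cdk6, fell by 1.47 and 1.38. Cdkn1b (p27) fell by 0.17 and Cdkn1c (p57) by 0.52, both with overlapping libraries. Among the p53 targets, Ccng1 fell by 1.27, Trp53inp1 by 1.24, Sesn2 by 1.16 and Gadd45b by 1.77, and Trp53 itself by 0.43. Plk3 and Sesn1 did not pass the test, with log2 fold changes of -0.25 and 0.08.

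Chromatin genes tied to replication were among the larger decreases of their list. Of 27 tested members of the DNA methylation and chromatin list, 7 were higher and 15 lower, 7 of the lower ones past a log2 fold change of 1 (median -0.33). Uhrf1, which brings Dnmt1 to newly copied DNA, fell by 3.31 on the log2 scale, Hmgb2 by 3.28, the histone variant gene H2afz by 2.13 and Dnmt1 by 1.41. Ezh2, the methyltransferase of Polycomb complex 2 in cycling cells, fell by 1.0, while its relative Ezh1 rose by 0.42. Chd3, a nucleosome remodeller, rose by 0.91 and the de novo methyltransferase Dnmt3a by 0.37.

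Targets of growth factor signalling split. Of 17 ERK feedback genes, 6 were higher and 6 lower, none past a log2 fold change of 1, with a median of 0.01. The Ets factors Etv5 and Etv1 fell by 0.95 and 0.73, whereas Etv4 rose by 0.42, as did the ERK phosphatase Dusp6 by 0.38 and the receptor inhibitors Spred1 and Il17rd by 0.52 and 0.73. Spry4 did not pass the test (13 CPM at 18 h and 13.8 CPM at 6 h, adjusted p = 0.463). Its mean in stem cell medium was 202 CPM, and that of Dusp6 was 458 CPM, so both already stood far under the NSC level at 6 h.

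The immediate early genes of the Egr family were higher at 18 h. Egr1, a zinc finger factor induced within minutes by ERK and other signals, had 56.9, 55.4, 47.2, 65.1 and 52.6 CPM at 18 h and 11.5, 17.3, 9.29, 20.2 and 17.7 CPM at 6 h. The groups did not overlap (log2 fold change 1.90 ± 0.14 SE, adjusted p = 3.34e-05), and the mean in stem cell medium was 238 CPM. Egr2, Egr3 and Egr4 rose by 2.09, 1.87 and 2.02, and Nr4a3 by 1.57. Unlike Egr1, each of these averaged under 5 CPM over the 10 libraries. Fos rose by 0.23, with overlapping libraries. The list as a whole had 12 of 23 members higher and 6 lower (median 0.28), the lower ones among them Ier5 at -1.09, Jund at -0.69 and Jun at -0.34. Myc, whose protein drives growth genes, averaged 36.1 ± 3.69 CPM at 18 h and 18.2 ± 4.7 CPM at 6 h (log2 fold change 1.02 ± 0.15 SE, adjusted p = 0.00104).

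Receptors and ligands changed in both directions. Of 30 tested, 14 were higher and 9 lower (median 0.25). Erbb4, a neuregulin receptor, averaged 118 CPM at 18 h and 14.7 CPM at 6 h, and Pdgfra, the receptor of oligodendrocyte precursors, 100.3 CPM at 18 h and 21.3 CPM at 6 h (log2 fold changes 3.06 ± 0.15 and 2.24 ± 0.04 SE). The EGF receptor ligands Tgfa and Hbegf rose by 1.6 and 1.5. The ligand Areg, which averaged under 5 CPM over the 10 libraries, fell by 2.47, and Egfr did not pass the test (0.05 ± 0.05 SE). The FGF receptors Fgfr1, Fgfr2 and Fgfr3 rose by 0.45, 0.78 and 0.72. The secreted binding proteins of insulin-like growth factors Igfbp2, Igfbp3 and Igfbp4 fell by 1.91, 1.53 and 2.03.

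Notch, BMP, Wnt and STAT genes gave mixed counts with a few large members. Among 22 Notch genes, 5 were higher and 9 lower (median -0.06). Hes5, a Notch target, had overlapping libraries and did not pass the test (111 CPM at 18 h, 100.1 CPM at 6 h), Hes1 and Notch1 fell by 0.38 and 0.56, and Hey2, Dll3 and Notch2 rose by 1.39, 0.83 and 0.71. Of 18 BMP and Id genes, 10 were higher and 4 lower (median 0.16). Id4, the inhibitor of neurogenic bHLH factors that marks quiescent stem cells and astrocytes, averaged 51.1 ± 4.39 CPM at 18 h and 16.6 ± 4.35 CPM at 6 h, a rise of 1.65 ± 0.11 SE on the log2 scale, and Id2 rose by 0.57, whereas Id3 fell by 0.35. The receptor Bmpr1b rose by 1.04 and the BMP antagonist Chrdl1 fell by 1.55. Of 19 Wnt genes, 11 were higher and 4 lower (median 0.36), with Nkd1 at -1.69 and the receptor-removing ligase Rnf43 at 1.36. Of 15 JAK-STAT genes, 6 were higher and 5 lower (median -0.03), with the shared cytokine receptor Il6st at 0.66, Socs3 at 0.96 and Stat3 at -0.55.

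Genes of quiescent stem cells were mostly higher at 18 h and those of activated ones divided. Of the 24 quiescence genes, 18 were higher and 4 lower, 9 of the higher ones past a log2 fold change of 1 (median 0.99). Vcam1, an adhesion protein of niche stem cells, rose by 2.00 and Prdm16, a chromatin regulator of neural stem cells, by 2.01. The transcription factor genes Nfia and Nfib of this list fell by 0.28 and 0.66, and the lowest log2 fold change of a member was -1.45. The list shares Id4, Sox9, Aldoc, Slc1a3, Glul and Fgfr3 with the astrocyte list and Mt1, Mt2 and Mt3 with the metallothionein list. The counts of these lists are therefore not independent of each other. Of 22 activated progenitor genes, 9 were higher and 7 lower (median 0.05). Fabp7, a fatty acid binding protein of radial glia and progenitors, had 3236, 3150, 3214, 2990.1 and 2768 CPM at 18 h and 1105, 1107, 1115, 931 and 1178 CPM at 6 h, with no overlap (1.5 ± 0.06 SE). The intermediate filament genes Nes and Vim fell by 1.6 and 0.69, and Olig2 by 0.41. Nr2e1, a nuclear receptor of stem cells, rose by 0.76.

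Astrocyte genes formed the group with the highest median of the 50 lists in the plot of list members. Of 26 genes, 24 were higher at 18 h and 1, Aldh1l1, was lower, and 17 of the higher ones passed a log2 fold change of 1 (median 1.6). Their summed level was 19150 to 22819 CPM at 18 h and 7285 to 9124 CPM at 6 h. Apoe (chr7:19696109-19699188, minus strand), the lipid carrier of astrocytes, had 5203, 4629, 4444, 5549 and 5532 CPM at 18 h and 416, 415, 250.5, 445 and 535 CPM at 6 h, a log2 fold change of 3.65 ± 0.11 SE (adjusted p = 6.87e-08) and a fold of 12.6. The lowest library at 18 h lay far above the highest at 6 h. Pla2g7, a phospholipase, rose by 3.71 and Ntsr2, a neurotensin receptor, by 2.62. The glutamate transporters Slc1a2 and Slc1a3 rose by 1.87 and 0.96, the water channel Aqp4 by 1.89, the gap junction gene Gja1 by 1.84 and S100b by 1.48.

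Gfap, the astrocyte intermediate filament, differed from these in level and spread. It had 14.9, 13.6, 7.55, 39.9 and 26.4 CPM at 18 h and 2.85, 2.88, 2.05, 3.01 and 5.23 CPM at 6 h. Animal 4 was the highest and animal 3 the lowest at 18 h, and no library at 18 h reached down to those at 6 h (log2 fold change 2.53 ± 0.29 SE, adjusted p = 0.000687). At 48 h its mean was 505 ± 392 CPM, against 2.61 ± 1.24 CPM in stem cell medium. Apoe at 48 h averaged 6361 ± 306 CPM, so its 18 h mean of 5071 ± 512 CPM was close to that level while Gfap's was far from it.

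**Figure D3:**
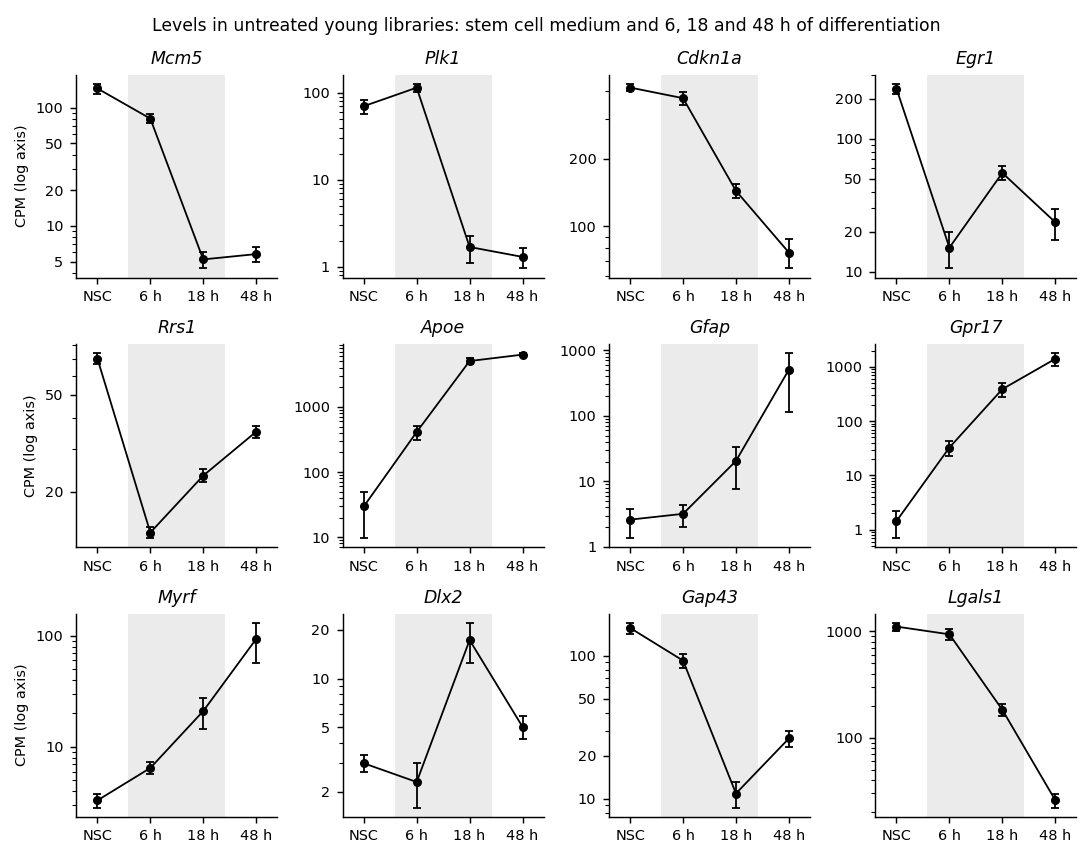
Mean level in CPM (log axis) with SD of 12 genes in untreated young libraries, 5 per time, with the compared times shaded. The points are stem cell medium (NSC) and 6, 18 and 48 h of differentiation. The NSC libraries are labelled 18 h and are drawn first for comparison, not as the start of the time course. Mcm5 and Plk1 are low at 18 and 48 h, Apoe, Gpr17, Myrf and Gfap climb over 6, 18 and 48 h, Dlx2 is highest at 18 h, Egr1 and Rrs1 are lowest at 6 h, and Lgals1 falls mostly after 6 h.

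Oligodendrocyte precursor genes were mostly higher too. All 21 tested were called, 16 higher and 5 lower, with a median of 0.78 and 8 of the higher ones past a log2 fold change of 1. Gpr17, a receptor of precursors committed to maturation, had 308, 466, 235, 439.8 and 493 CPM at 18 h and 27.1, 43.9, 19.9, 30.6 and 41.4 CPM at 6 h, without overlap (log2 fold change 3.57 ± 0.06 SE, adjusted p = 2.55e-12, fold 11.9). Its mean was 1.44 CPM in stem cell medium and 1403 CPM at 48 h. Tnr, a matrix glycoprotein of this lineage, rose by 3.26, Sox10, the lineage's transcription factor, by 2.32, and Pdgfra by 2.24. The members that fell were Cspg4 at -0.54, Olig2 at -0.41, Olig1 at -0.29, Sox8 at -0.27 and Vcan at -0.23.

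Genes of myelinating cells were less uniform. Of 21 tested, 13 were higher and 6 lower (median 0.60). Myrf, the transcription factor of myelin genes, had 17.6, 18.0, 14.0, 25.3 and 30.1 CPM at 18 h and 5.92, 5.95, 5.81, 7.39 and 7.24 CPM at 6 h, without overlap (1.65 ± 0.10 SE). Animal 5 was the highest at 18 h. Sirt2, Gal3st1 and Enpp2 rose by 1.56, 1.46 and 1.45. Mbp, a late myelin gene, rose by 0.60 from a low level (8.63 CPM at 18 h, 5.59 CPM at 6 h). The later myelin genes Opalin, Ermn and Mobp were lower, with log2 fold changes of -3.42, -2.87 and -1.83, and averaged under 1 CPM at 18 h. Mog was too low to test.

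Neuronal genes split into members that rose and members that fell. Of 28 tested neuroblast and neuron genes, 11 were higher and 11 lower (median -0.06). Gap43, a growth cone protein, had 9.53, 11.1, 10.6, 8.79 and 14.5 CPM at 18 h and 90.7, 91.7, 105, 75.7 and 98.1 CPM at 6 h, without overlap (log2 fold change -3.10 ± 0.08 SE, adjusted p = 8.1e-11). Stmn1, a microtubule destabiliser that dividing cells also use, fell by 1.44 and Syt1, the calcium sensor of vesicle release, by 2.95. Syt1 averaged under 5 CPM over the 10 libraries. Neurog2, a proneural factor best known from glutamatergic neurons, had the largest increase of the list and averaged 3.92 ± 0.234 CPM at 18 h and 0.22 ± 0.119 CPM at 6 h (4.20 ± 0.24 SE). Dcx, the microtubule protein of neuroblasts, averaged 45.9 ± 9.31 CPM at 18 h and 17.1 ± 3.73 CPM at 6 h (1.43 ± 0.05 SE), and Nsg2, Nrxn3 and Elavl3 rose by 1.46, 1.54 and 1.23. Tubb3 fell by 0.16 and its libraries overlapped.

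A few genes of the GABAergic interneuron programme were among the larger increases. The list had 14 of 22 members tested, 7 higher and 2 lower (median 0.23). Gad1, which makes GABA from glutamate, had 31.5, 31.5, 37.4, 32.5 and 27.3 CPM at 18 h and 3.74, 4.32, 2.84, 3.71 and 4.02 CPM at 6 h, far apart in all animals (3.10 ± 0.13 SE, adjusted p = 9.05e-08). The homeobox genes Dlx1 and Dlx2, which specify interneurons, neighbour each other on chromosome 2 and rose by 3.07 ± 0.16 and 2.89 ± 0.15 SE. Dlx2 had 20.3, 13.6, 18.6, 22.7 and 11 CPM at 18 h and 1.94, 2.10, 1.80, 3.52 and 2.10 CPM at 6 h. Its mean at 48 h was 5.03 CPM, under that at 18 h. Gsx1, which acts before Dlx2 in the ganglionic eminence, averaged 3.80 CPM at 18 h and 0.825 CPM at 6 h, a rise of 2.20 on the log2 scale. Dlx5, Dlx6 and Slc32a1, later members of the programme, were too low to test, and Gad2 and Meis2 did not pass the test.

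Channel and synapse genes leaned to higher values. Of 39, 22 were higher and 10 lower (median 0.29). Gabbr2, a GABA receptor subunit with 1 of the 12 largest increases by the same rule as for the decreases, averaged 192 CPM at 18 h and 15.2 CPM at 6 h (3.68 ± 0.07 SE). Grik3, a kainate receptor, rose by 2.00, the potassium channels Kcnk1 and Kcna6 by 1.75 and 1.54, and Snap91, a clathrin adaptor, by 1.47. The NMDA receptor subunit gene Grin2a and the AMPA receptor subunit gene Gria1 fell by 2.96 and 1.24. Grin2a averaged under 5 CPM over the 10 libraries. The other genes with the 12 largest increases included C1ql1, Cldn10, Rnase1, Pla2g7, Apoe, Dpp10, Gpr17, Lims2, Tnr and Csmd1, with log2 fold changes between 3.22 and 4.04. The rule itself required all 12 to be higher in 5 of 5 animals. Lims2 (chr18:31922290-31958619, plus strand) spans the whole of Gpr17 (chr18:31942997-31949636, minus strand). Lims2 averaged 54.8 CPM at 18 h and 5.07 CPM at 6 h, and Gpr17 388 and 32.6 CPM. Whether reads of Gpr17 were counted for Lims2 was not tested, so its rise may not be a separate one.

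**Figure D4:**
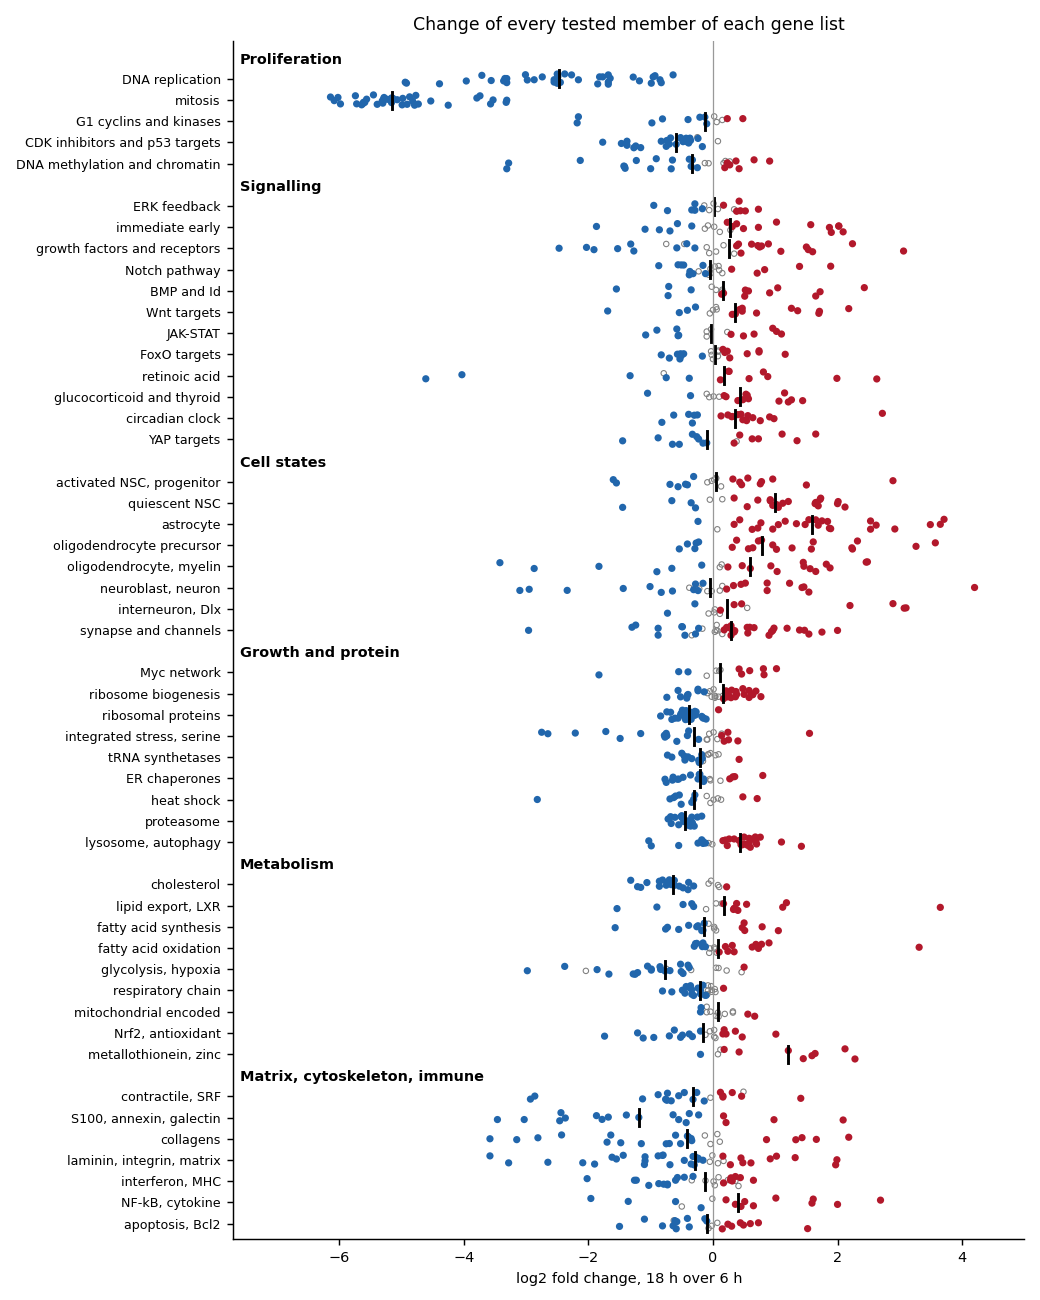
Log2 fold change at 18 h over 6 h of each tested member of 50 gene lists. Filled points passed the test (red higher at 18 h, blue lower), hollow points did not, and the black bar is the list's median. The mitosis list has its median at -5.16 and the replication list at -2.47, while the astrocyte list has its median at 1.6.

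Growth and protein synthesis did not move as a block. Of the 13 genes of the Myc network, 6 were higher and 3 lower (median 0.12). Besides Myc, its partner Max rose by 0.59 and the antagonist Mnt by 0.81, while Mxd3, an antagonist expressed in S phase, fell by 1.83. Of 36 ribosome biogenesis genes, 18 were higher and 9 lower, none past a log2 fold change of 1 (median 0.17). Rrs1, an assembly factor of the large subunit, averaged 23.3 ± 1.43 CPM at 18 h and 13.6 ± 0.679 CPM at 6 h (0.77 ± 0.05 SE), with 70.5 CPM in stem cell medium and 35.3 CPM at 48 h. Rrp12 and Gnl3 rose by 0.69 and 0.64, and Odc1, the polyamine enzyme, fell by 0.74. The E-box letters CACGTG, which Myc and Max bind, stood in 2 of 38 promoters of this list (5.3%, against 6.0% of all).

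The ribosomal proteins went the other way from the assembly factors. Of 35, 34 were lower and 1 higher, with none past a log2 fold change of 1 (median -0.39) and sums of 21693 to 23824 CPM at 18 h and 26846 to 29479.9 CPM at 6 h. Rps2 averaged 498 ± 20.8 CPM at 18 h and 887 ± 55.9 CPM at 6 h. Copies of ribosomal protein genes elsewhere in the genome can take or lose reads, so single values are uncertain. Of 26 genes of the integrated stress response and serine synthesis, 6 were higher and 14 lower (median -0.31). Pycr1 and Mthfd2, mitochondrial enzymes of proline and folate metabolism, fell by 2.75 and 2.65, and Ddit4, an inhibitor of mTORC1, by 1.49. Atf4 did not pass the test, while Slc6a9, a glycine transporter, rose by 1.55. Among 20 tRNA synthetases, 1 was higher and 13 lower (median -0.20), with Cars at -0.73 and Aars at -0.66.

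Proteasome genes were lower and most lysosomal genes higher. All 20 proteasome genes were lower (median -0.45), from Psmd14 at -0.72 to the smallest at -0.18. Of 21 chaperones and factors of the endoplasmic reticulum, 4 were higher and 14 lower (median -0.21), with the disulfide isomerase P4hb at -0.65 and the stress factor Xbp1 at 0.80. Of 16 heat shock genes, 2 were higher and 9 lower (median -0.30), with Hspd1 at -0.69 and Hsp90aa1 at -0.60. Of 32 lysosome and autophagy genes, 22 were higher and 8 lower (median 0.43). Among these, Ctsf, a cathepsin, averaged 99.2 ± 5.79 CPM at 18 h and 36.9 ± 1.98 CPM at 6 h (1.42 ± 0.04 SE), Hexa rose by 1.10 and Ctsb by 0.76, while Ctsh fell by 0.99.

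Most genes of sterol synthesis and glycolysis were lower at 18 h. Of 24 cholesterol genes, 19 were lower and 1 higher (median -0.64). Nsdhl and Fdps, enzymes of the pathway, fell by 1.32 and 1.21. Of 17 genes of lipid export and its nuclear receptor LXR, 9 were higher and 5 lower (median 0.17). Abca1, the cholesterol exporter, rose by 1.18 and Clu, a lipoprotein of astrocytes, by 1.12, while Scd1, a desaturase, fell by 1.54. Of 27 tested glycolysis and hypoxia genes, 19 were lower and 1 higher (median -0.77). Ldha had 143, 143, 142, 157 and 154 CPM at 18 h and 316, 301, 344, 389 and 421 CPM at 6 h, without overlap (-1.25 ± 0.05 SE). Tpi1 and Pkm fell by 1.21 and 0.99. The hypoxia targets Vegfa and Bnip3 did not pass the test.

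Mitochondrial and fatty acid genes changed little by comparison. Of 25 nuclear genes of the respiratory chain, 16 were lower and 1 higher (median -0.20), with Cycs at -0.81 and Atp5b at -0.66. Of 13 genes of the mitochondrial genome, 2 were higher and 2 lower (median 0.08). Of 19 fatty acid synthesis genes, 5 were higher and 10 lower (median -0.14), and Thrsp fell by 1.57. Of 22 fatty acid oxidation genes, 11 were higher and 6 lower (median 0.08). Cpt1a, the carnitine transferase that admits fatty acids to mitochondria, rose by 0.78. In the antioxidant list of Nrf2 targets, 6 of 22 were higher and 11 lower (median -0.16), with Nqo1 at -1.21 and Gstm1 at 1.01.

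Most metallothioneins and zinc transporters were higher. Of 11 tested, 8 were higher and 1 lower, 5 past a log2 fold change of 1 (median 1.21). Mt2 had 338, 299, 239, 301 and 304 CPM at 18 h and 62.2, 61.3, 49.2, 84.8 and 86.2 CPM at 6 h, all far apart (2.12 ± 0.10 SE). Mt1 and Mt3 rose by 1.64 and 1.21, and the transporters Slc30a10 and Slc39a12 by 2.28 and 1.59.

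In most lists of the cytoskeleton and matrix more genes were lower than higher. Of 19 S100, annexin and galectin genes, 15 were lower and 4 higher (median -1.19). Lgals1, galectin 1 of neural stem cells, had 198, 147, 209, 172 and 188 CPM at 18 h and 975, 807, 1069, 858 and 984 CPM at 6 h, without overlap (log2 fold change -2.37 ± 0.04 SE, adjusted p = 2.55e-12). S100a11 fell by 2.44, while S100a1 rose by 2.09. Of 21 contractile genes, 13 were lower and 6 higher (median -0.32). Acta2 and Tagln2, actin and an actin-bundling protein, fell by 2.86 and 2.93, and Actb rose by 0.12.

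Fn1, fibronectin, had 6.16, 5.75, 7.78, 5.47 and 10.4 CPM at 18 h and 64.9, 60.5, 53.8, 71.9 and 88.6 CPM at 6 h. Animal 5 was the highest at both times, and the groups were far apart (-3.28 ± 0.13 SE, adjusted p = 4.88e-07). Among 38 genes of laminins, integrins and other matrix, 24 were lower and 10 higher (median -0.30). The laminin chains Lama4 and Lama5 fell by 1.90 and 1.62 and the laminin receptor subunit Itga6 by 1.09. The brain proteoglycan genes Bcan and Ncan rose by 1.32 and 0.48. Of the 25 tested members of the collagen list, 16 were lower and 5 higher (median -0.41), with Col6a2 at -3.58 and Col18a1 at -2.43. Over all 34 tested genes with a Col symbol the split was more even, with 16 lower and 11 higher (median -0.25), and 6 lower and 7 higher past a log2 fold change of 1. Acta2 and Col1a2 are also pericyte and fibroblast markers, of which 6 of 13 were tested, all 6 lower, with summed levels of 136 to 166 CPM at 18 h and 197 to 253 CPM at 6 h and Kcnj8, Dcn and Lum near 0. The part of such cells in these counts was not tested. Of 17 YAP targets and partners, 7 were higher and 9 lower (median -0.10), with Nuak2 at -1.45 and F3 at 1.35.

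Hormone, clock and retinoid genes followed. Of 20 clock genes, 14 were higher and 6 lower (median 0.36). Nr1d1, a repressor of Arntl, rose by 0.91 and Arntl by 0.64, while Per3 fell by 0.82 and Dbp by 0.33. Of 18 targets and receptors of glucocorticoid and thyroid hormone, 12 were higher and 2 lower (median 0.44). Thra, the thyroid hormone receptor, rose by 1.26 and Hr, its target, by 1.44. Of 14 retinoic acid genes, 8 were higher and 5 lower (median 0.18). Aldh1a3, which makes retinoic acid, averaged 0.784 ± 0.361 CPM at 18 h and 12.6 ± 3.77 CPM at 6 h (-4.03 ± 0.11 SE), Crabp1 fell by 4.61, and Dhrs3, which turns retinaldehyde back, rose by 1.99. Of 22 FoxO targets, 8 were higher and 8 lower (median 0.04), with Txnip at 1.16 and Ccng2 at -0.83.

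Immune and cell death genes showed no common direction. Of 27 interferon and MHC genes, 7 were higher and 12 lower (median -0.12), with Tap1 at -1.23. Of 16 NF-κB and cytokine genes, 10 were higher and 4 lower (median 0.41), and C4b, a complement component that astrocytes express, averaged 39.8 ± 4.66 CPM at 18 h and 6.11 ± 0.687 CPM at 6 h (2.69 ± 0.09 SE). Il6, Tnf and C3 were too low to test. Of 23 apoptosis genes, 8 were higher and 11 lower (median -0.10). Bcl2, the inhibitor of mitochondrial cell death, rose by 1.52, and its antagonists Bbc3 and Bcl2l11 fell by 0.81 and 0.61.

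The same interval in cells of old mice gave nearly the same changes. In untreated cultures of 4 mice aged 25 months, which share no library with the young ones, 12267 of 17064 genes (71.9%) passed the test. Of 16856 genes tested at both ages, 10611 were called in the same direction, which is 87.1% of the 12178 old calls and 92.0% of the 11532 young calls, and 2 were called in opposite directions. Across these genes, which are not independent replicates, Pearson's r of the log2 fold changes was 0.962. The mitosis list had all 38 members lower in old cells with a median of -5.62, beside -5.16 in young cells, and the astrocyte list a median of 1.51 in old and 1.6 in young cells. Plk1 averaged 1.01 CPM at 18 h and 127 CPM at 6 h in old cells. Its difference between ages, -0.82 ± 0.35 SE, did not pass the test.

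Of 17726 genes tested for a difference of the change between old and young cells, 2 passed (0.0113%), 1 with a positive and 1 with a negative difference (0.00564% each), in edgeR's test of the interaction of age and time. Tnc, a matrix glycoprotein of the stem cell niche, averaged 133 ± 15.3 CPM at 18 h and 273 ± 30.6 CPM at 6 h in old cells (SD, n = 4). In young animals 1 to 5 it had 93.3, 90.2, 98.2, 128 and 96.9 CPM at 18 h and 273, 288, 267, 361 and 282 CPM at 6 h. It fell by 1.05 on the log2 scale in old and by 1.55 in young cells, a difference of 0.50 ± 0.07 SE (adjusted p = 0.0314). Nell2, a secreted neuronal glycoprotein, averaged 117 ± 6.2 CPM at 18 h and 103 ± 6.82 CPM at 6 h in old cells. In young animals it had 195, 175, 198, 162 and 189 CPM at 18 h and 120.2, 112, 119, 101 and 115 CPM at 6 h. It rose by 0.17 in old and by 0.69 in young cells (-0.51 ± 0.07 SE, adjusted p = 0.0156). Both genes keep their sign at both ages, and the size differs. Tnc lies at chr4:63959785-64047015 on the minus strand and Nell2 at chr15:95075230-95528559 on the minus strand (mm10, GENCODE M21). At an unadjusted p under 0.05 the count was 1391, and other settings gave from 0 to 60 genes, among them 0 without old animal 2 or 3 or young animal 1 or 5, 11 without young animal 4 and 43 without young animal 3.

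**Figure D5:**
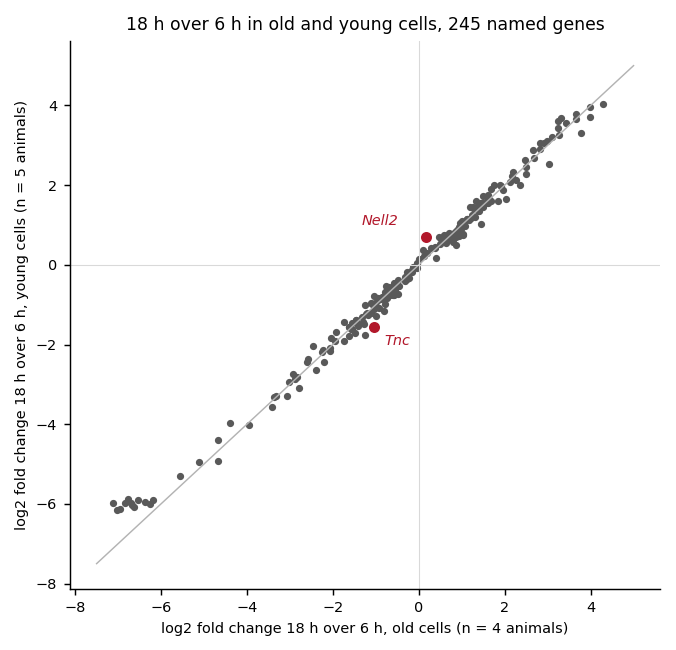
Log2 fold change at 18 h over 6 h in old cells (x axis, 4 animals) and young cells (y axis, 5 animals) for the 245 genes named by rule, with the line of equal change. Tnc and Nell2, marked in red, are the genes whose change differed between ages, and the other points lie along the line, the mitotic ones at the lower left.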

How the data were processed

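RNA was sequenced from mouse neural stem cell cultures with a stranded mRNA kit. The deposited table holds counts per gene for 65 libraries, raw per the file's whole numbers. Reads had been trimmed with Trim Galore 0.6.6 and aligned to mm10 with STAR 2.7.10b, and SAMtools, Subread and DESeq2 1.40.1 are also named, per the submitters' processing notes. Whether counting used strand is not given in the sources used here, so overlapping and antisense genes are uncertain. In the deposited counts the value 2 stood 75644 times and the value 1 19963 times, so that a fragment mostly counted as 2 and intervals from counts alone would be too narrow. A second table by the authors gives variance-stabilised log2 values and served only in an alternative. Of 31057 features, 31011 were named from GENCODE M21 and 46 had no match, among them 4 transgene features. These features stayed in the table and were never named.

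Counts were analysed in R 4.3.3 with edgeR 4.0.16 (TMM scaling, genes kept by filterByExpr at min.count 10, the quasi-likelihood test with robust dispersions, and a Benjamini-Hochberg threshold of 0.05), with the animal as a block, because same-numbered libraries come from the same animal by the labels. Over 11706 genes the deviations of same-animal libraries correlated at 0.2 to 0.614 (median 0.515). Those of different animals correlated at a median of -0.21 and at most 0.391, so the ranges overlapped. The deviations were taken from group means, which by itself pushes the values of different animals under 0. CPM were computed with TMM-scaled library sizes, and a fold change passing 1 on the log2 scale was tested with glmTreat. The change in old cells was fitted in the same way, and the difference between ages as an interaction with the animal as a block. DESeq2 1.42.0 and limma 3.58.1 served as alternatives. The labels do not say whether an animal's libraries are separate cultures.

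The fit was tested on simulated data. The changed genes, 50 per fold, were drawn only from genes with high counts, and no other gene was changed. In the real comparison 68.0% of genes passed. Counts were drawn independently, without fragments that count as 2. Recovery of genes with low counts was not measured. For 18 h over 6 h, with 17041 genes, it recovered 86% of genes changed by a fold of 1.25 and 100% of those changed by 1.5, 2 or 4, with 14 false calls. For the difference between ages, with 17645 genes, it recovered 36% at a fold of 1.25, 92% at 1.5, 98% at 2 and 100% at 4, with 11 false calls.

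The gene lists and the choice of libraries were made with earlier results of these data known. Genes were named by rule: per direction the 12 largest changes among called protein-coding genes with at least 5 CPM and no overlap, up to 4 called members per list with the largest change, and a panel of known regulators, 245 genes in all. Other list members named as examples were chosen after their values were seen. Promoters came from RefSeq (GRCm38.p6), read on both strands for 250 bases before the start. The other groups of the series were not used beyond levels at other times. Results for some genes are not reported here.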

Additional observations from a re-analysis of the deposited data

Results flagged for a closer look

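The change between 18 h and 6 h differed between old and young cells for Tnc, by 0.50 on the log2 scale (old minus young), and for Nell2, by -0.51, by edgeR's test of the interaction. In young cells Tnc was highest in animal 4 at both times, with 128 CPM at 18 h against 90.2 to 98.2 CPM in the others, and 361 CPM at 6 h against 267 to 288 CPM. That animal stood apart at both times in the same direction.

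In 350 groups of 5 values, 20 had an extreme library whose gap to the nearest exceeded Dixon's critical value of 0.71 of the range, and by chance about 1 in 20 such groups would. At 18 h, animal 5 was highest for Rrm2 (9.63 CPM, others 6.34 to 7.23), Cycs (43.5 CPM, others 37.8 to 39.0) and Aldh1a3 (1.42 CPM, others 0.546 to 0.680), and lowest for Arntl (27.7 CPM, others 32.7 to 34.6). Animal 3 was highest at 18 h for Olig2 (775 CPM, others 649 to 683) and Id3 (87.1 CPM, others 72.4 to 76.4). Animal 4 was lowest for Nrxn3 (16.4 CPM, others 22.2 to 24.5), and animal 1 highest for Acta2 (2.54 CPM, others 2.14 to 2.21). At 6 h, animal 5 was lowest for Plk1 (93.8 CPM, others 116 to 125) and highest for Pla2g7 (50.7 CPM, others 30.9 to 36.0), Id2 (81.2 CPM, others 61.4 to 67.0), S100a1 (7.64 CPM, others 4.41 to 4.77) and Col6a2 (23.1 CPM, others 8.76 to 12.7). Animal 4 was highest at 6 h for Dlx2 (3.52 CPM, others 1.80 to 2.10) and lowest for Slc39a12 (7.82 CPM, others 9.69 to 9.99). Animal 3 was highest for Fdps (92.8 CPM, others 68.4 to 74.5) and lowest for Abca1 (196 CPM, others 307 to 347), and animal 1 highest for Gadd45b (14.8 CPM, others 10.8 to 11.8).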

How the results depend on the processing

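Without the replicate block 11358 genes passed the test for 18 h over 6 h, against 11611 with it. Other scalings, DESeq2, other filters, halved counts, the variance-stabilised values, a fit of all untreated young libraries and leaving out 1 animal at a time also stayed within 1.5 times that count, with 10724 to 11787 genes when an animal was left out. The test against a log2 fold change of 1 gave 1591 genes, 656 higher and 935 lower. The difference between ages, 2 genes, gave 0 without the block (0 higher, 0 lower), 60 with DESeq2 (32 higher, 28 lower) and 13 with no filter on low counts (8 higher, 5 lower). Leaving out 1 animal gave 0 to 43 genes (0 to 30 higher, 0 to 13 lower), with 43 without young animal 3, 11 without young animal 4 and 0 without old animal 2 or 3 or young animal 1 or 5. The cause was not tested. No named gene changed direction. Of the 245, mt-Nd1, Tubb3, Id1, Fos, Dusp6 and Etv4 no longer passed without the block, Id1 and Fos also not without animal 1 or 4. The median over all genes lay between -0.004 and 0.02 under every scaling, filter and left-out animal tried. With 5 animals small changes can be missed, and genes well under 1 CPM rest on few counts.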

Other observations

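Some genes outside the lists reached a low level at 18 h and were near 0 at 6 h. They were looked up after their values were seen. The protein-coding genes called higher by a log2 fold change of 4 or more were 9 in all. The largest increase was that of Helt, a bHLH transcription factor of GABAergic neuron specification in the midbrain. It had 4.51, 4.15, 3.56, 4.87 and 3.82 CPM at 18 h and 0.0275, 0.0803, 0.0104, 0.0123 and 0.0444 CPM at 6 h (log2 fold change 6.78 ± 0.25 SE, adjusted p = 4.4e-10 by edgeR), and averaged 3.07 CPM at 48 h. Dct, a melanin synthesis enzyme that neural progenitors also express, rose by 4.26. In old cells the mean of Helt was 3.49 CPM at 18 h and 0.0983 CPM at 6 h.

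Among the clustered protocadherins, surface proteins that give neurons their identity, the genes of a cluster moved by nearly equal amounts in Pcdha and in Pcdhg, and not in Pcdhb. All 14 tested Pcdha genes rose by 0.74 to 0.79 and all 21 Pcdhg genes by 0.39 to 0.42, while of 21 Pcdhb genes 10 were higher and 2 lower (range -0.36 to 0.80, median 0.18). Members of the Pcdha and Pcdhg clusters share their constant exons, so their counts are not independent of each other. Nucleoporin genes (Nup) were lower in 18 of 21 with none higher (median -0.71), and centrosomal Cep genes lower in 26 and higher in 3 of 35 (median -0.40). Over all genes tested 33.3% were lower and 34.7% higher. Nup and Cep were picked after the values of many families of gene symbols were seen, and the Mcm and Scn families had lower medians (-1.92 and -0.76).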
